A study of Homo sapiens with 6 samples.

Results

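The genes described here encode the nuclear pore complex, the karyopherins that carry cargo through it, and the lamina and inner membrane proteins that surround it. They were chosen by gene name: symbols of the NUP, IPO, XPO, KPNA, KPNB and TNPO families, and 15 further named genes such as RANBP2, CSE1L, LMNA and EMD. The rule gave 61 of the 16670 genes in the table, of which 59 passed the filter on low values, and IPO4 and NUP210L did not. The rule used no measured value, but the family was proposed with results of this comparison known, so its counts and p-values stand as a description and not as independent evidence.

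RNA was sequenced from A549 cells, an established line from a human lung adenocarcinoma, in 6 libraries. In the salinomycin group, 3 cultures given alisertib for 1 week were then exposed to 2.5 µM salinomycin for 48 h. In the untreated group, 3 cultures had the week of alisertib and no salinomycin. Alisertib inhibits the mitotic kinase Aurora A and was used to make the cells senescent, and salinomycin is an ionophore antibiotic that carries potassium across membranes. Every library therefore came from alisertib-treated cells, and no cells without alisertib were analysed here. The labels call the 3 libraries of a group biological replicates. The line is of lung epithelial origin, and the keratins KRT8, KRT18 and KRT7 were high in both groups, though lower after salinomycin. Of the other epithelial markers read, EPCAM was low, at a mean of 19 scaled units in salinomycin and 46.7 in untreated libraries. CDH1 was lower after salinomycin and KRT19 higher. The alveolar surfactant genes SFTPA2, SFTPB and SFTPC lay at or near 0. SFTPD was higher after salinomycin, at a mean of 32.7 scaled units against 12.2 in untreated libraries. Of the other alveolar type 2 markers, ABCA3 was also higher, at a mean of 3278 against 1821, and NKX2-1, at 15.6 against 0. NAPSA overlapped between the groups.

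The pore is a ring-shaped channel through the nuclear envelope, built of scaffold proteins that anchor it, membrane proteins that hold it, and proteins with phenylalanine-glycine (FG) repeats that fill its centre. Importins pick up cargo in the cytoplasm and release it in the nucleus, where the small GTPase Ran is charged with GTP, and exportins work the other way round. Beneath the inner membrane the lamins form a mesh, to which emerin, the lamin B receptor and the SUN proteins attach, and the B-type lamin LMNB1 is known for its decline in senescent cells.

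Values below are scaled units: the deposited value less the 1 that stood in place of 0, divided by a trimmed-mean (TMM) factor for each library. Changes are salinomycin minus untreated on the scale of log2(unit + 1), with the standard error (SE) of the limma fit. A gene was called at a limma p under 0.05 after Benjamini-Hochberg adjustment over the 13049 tested genes. Deposited totals lay between 16270249 and 16382904 per library because the authors had rescaled them, so they do not give the depth of each library, which was not estimated here. Libraries of a group correlated at 0.993 to 0.9952 over log2 values of the tested genes, and libraries of different groups at 0.8413 to 0.846. In bulk RNA, fewer cells of a type and less RNA per cell cannot be told apart.

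Most of these genes moved, but few moved far. Of the 59 tested genes, 29 (49.2%) were higher and 19 (32.2%) lower in salinomycin than in untreated cells, and 11 did not pass. Among all tested genes, 41.6% were higher and 40.4% lower, so a call in one direction or the other was the common outcome in the whole table. The median change was 0.12, with quartiles at -0.30 and 0.46, against 0.02 with quartiles at -0.71 and 0.69 for all tested genes. A change under 0.5 in size was found for 42 of the 59 (71.2%) and for 38.0% of all tested genes. Called changes of 2-fold or more numbered 8 upward and 2 downward, 16.9% of the tested members against 35.3% of all tested genes. The libraries of the 2 groups did not overlap for 49 of the 59, against 83.1% of all tested genes.

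The 3 classes are set here beside all tested genes, of which 41.6% were higher and 40.4% lower. Counts by role in the paragraphs below stand beside the same shares for TMM scaling. Among 27 pore proteins, 17 were higher (63%), 2 lower (7.41%) and 8 not past the threshold, with a median of 0.19. The other 2 classes lay nearer the shares of all tested genes. Among 24 tested karyopherins, 9 were higher (37.5%), 12 lower (50%) and 3 not past the threshold, with a median of -0.11. Among 7 lamina and inner membrane genes, 3 were higher (42.9%) and 4 lower (57.1%), with a median of -0.20. These splits moved with the scaling, since scaling by library size alone raised the median of all genes by 0.19 and upper-quartile scaling lowered it by 0.09. Scaled by library size alone, 34 of the members were higher and 13 lower, and with upper-quartile scaling 21 were higher and 22 lower. Of all 13049 genes tested with library-size scaling, 6439 were higher and 4353 lower. Of the 13051 tested with upper-quartile scaling, 4995 were higher and 5725 lower. The pore proteins gave 21 higher and 1 lower with the library-size scale and 11 higher and 4 lower with the upper-quartile scale. For the karyopherins these counts were 10 and 9, then 8 and 13. For the lamina and inner membrane genes they were 3 and 2, then 2 and 4. The call was the same under each of the 15 other settings tried for 37 of the 59 members, 21 of them higher, 13 lower and 3 not past the threshold.

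**Figure D1:**
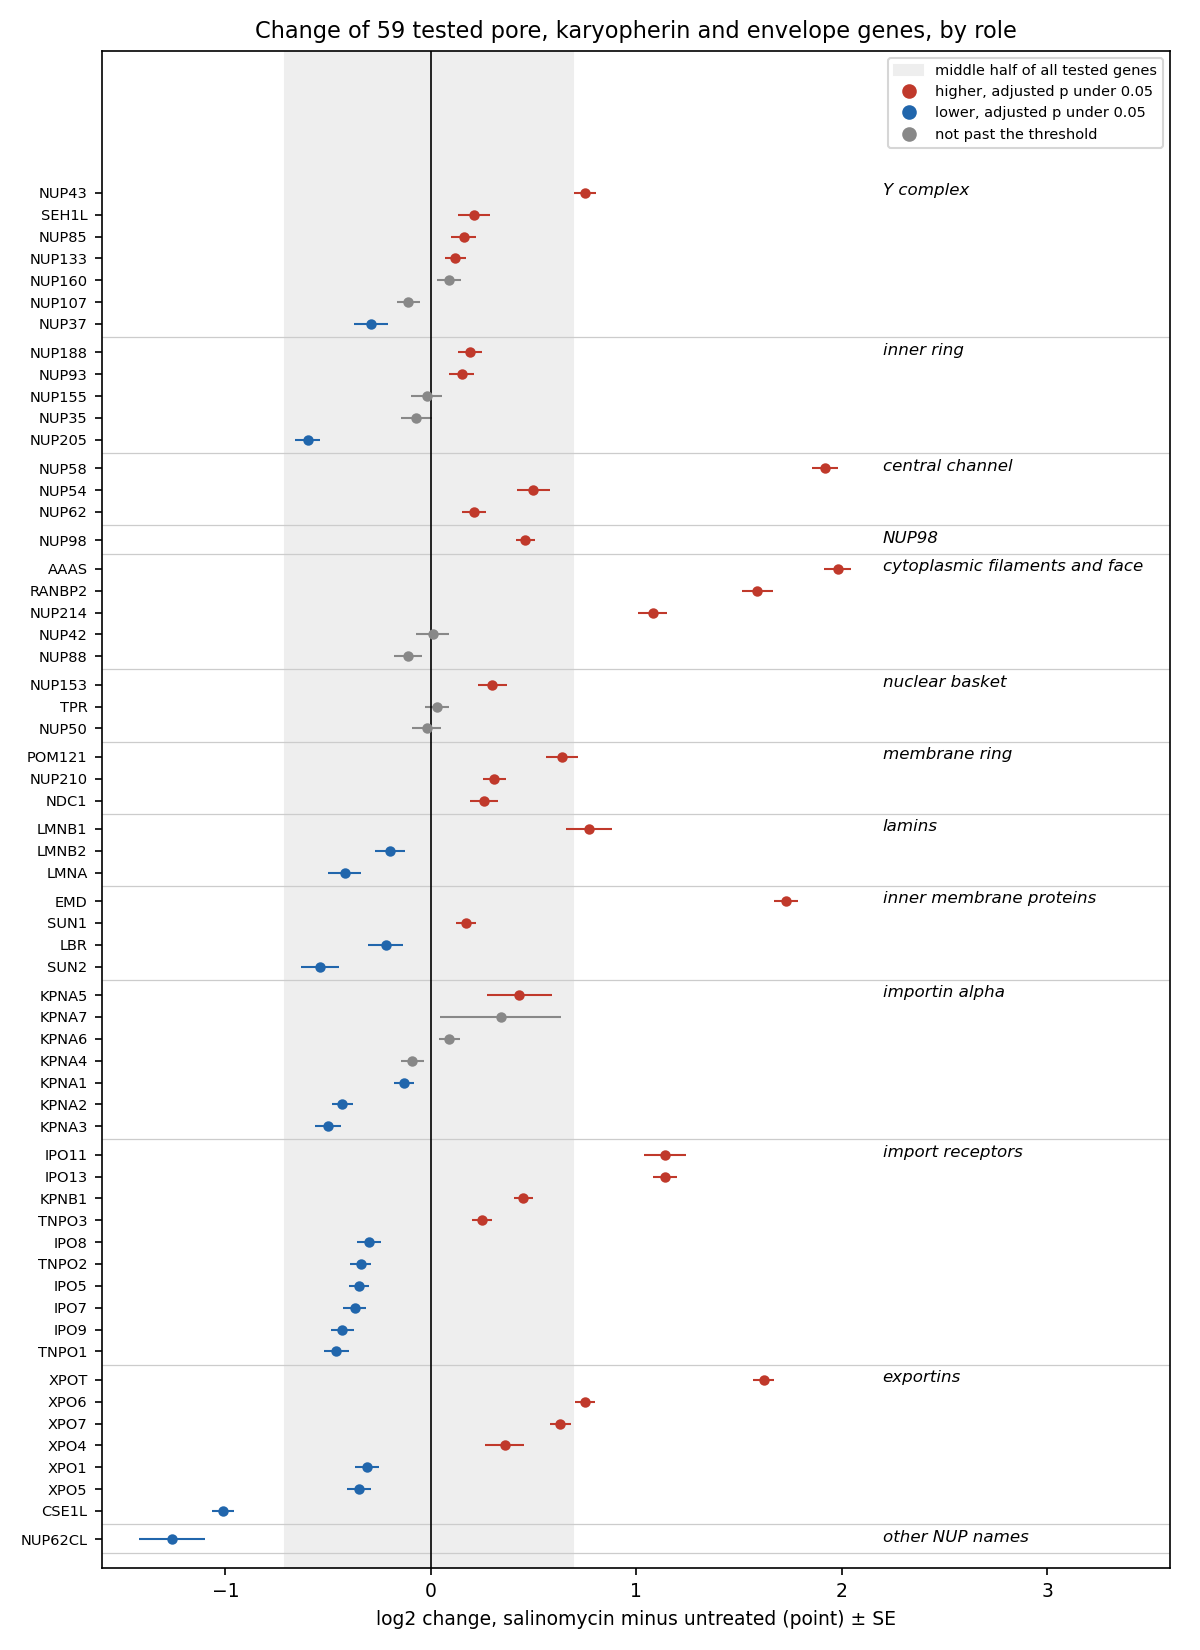
Log2 change of each tested gene, salinomycin minus untreated, as a point with its SE (horizontal axis), with the genes in rows grouped by role. Points right of 0 are higher in salinomycin cells, and the grey band spans the quartiles of all tested genes, -0.71 to 0.69. The largest rises, AAAS, NUP58, EMD, XPOT and RANBP2, come from 4 different roles, and the points left of the band are CSE1L and NUP62CL.

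The cytoplasmic face of the pore held the largest rise as a group, and it was carried by 3 of its 5 genes. Their summed level was 14852 ± 902 units in salinomycin libraries and 6011 ± 355 units in untreated libraries (SD, n = 3 each), a ratio of 2.47. AAAS encodes ALADIN, a propeller protein of the pore mutated in triple A syndrome, and lies at chr12:53307456-53324864 on the minus strand (GRCh38). It had 3892, 3241 and 3452 units in the salinomycin libraries, against 875, 921 and 871 units in the untreated libraries. Every salinomycin library lay far above every untreated one, and the change was 1.98 ± 0.067 (SE; limma adjusted p = 9.75e-11), a 3.96-fold rise and the largest among the members.

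RANBP2, at chr2:108719481-108785811 on the plus strand, encodes the long filament protein that reaches into the cytoplasm and holds the Ran GTPase-activating protein. It had 7378, 7473 and 6517 units in salinomycin libraries, against 2129, 2554 and 2436 units in untreated libraries. The groups did not overlap, and the change was 1.59 ± 0.074 (SE; limma adjusted p = 1.46e-09), or 3.00-fold. RANBP2 has near-identical copies, the RGPD genes, between which reads can be split. These were far lower: RGPD5, the one with the highest mean in salinomycin cells, had 72.2, 60.9 and 71.3 units in salinomycin libraries and 36.8, 44.7 and 43.7 units in untreated libraries. RGPD3, RGPD5 and RGPD8 were called higher, RGPD4 did not pass, and RGPD1, RGPD2 and RGPD6 were too low to test.

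NUP214, the FG protein at which messenger RNA export ends, had 3082, 2957 and 2628 units in salinomycin libraries, against 1254, 1427 and 1411 units in untreated libraries. It rose by 1.08 ± 0.070 (SE; limma adjusted p = 3.01e-08), 2.12-fold, with no overlap. NUP88, which binds NUP214 and holds it at the pore, did not follow: it had 965, 990 and 916 units in salinomycin libraries, against 1025, 1127 and 946 units in untreated libraries (limma adjusted p = 0.173). Parts of NUP88 are shared with RABEP1 and RPAIN on the opposite strand, 8.8% and 9.8% of its exonic bases, and whether counting used strand was not given in the sources used here. NUP42, the partner of the export factor GLE1, had 348, 347 and 370 units in salinomycin libraries, against 384, 346 and 330 units in untreated libraries. Its groups overlapped, its change of 0.01 was the smallest in size among the members, and it took either sign as the scaling changed.

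**Figure D2:**
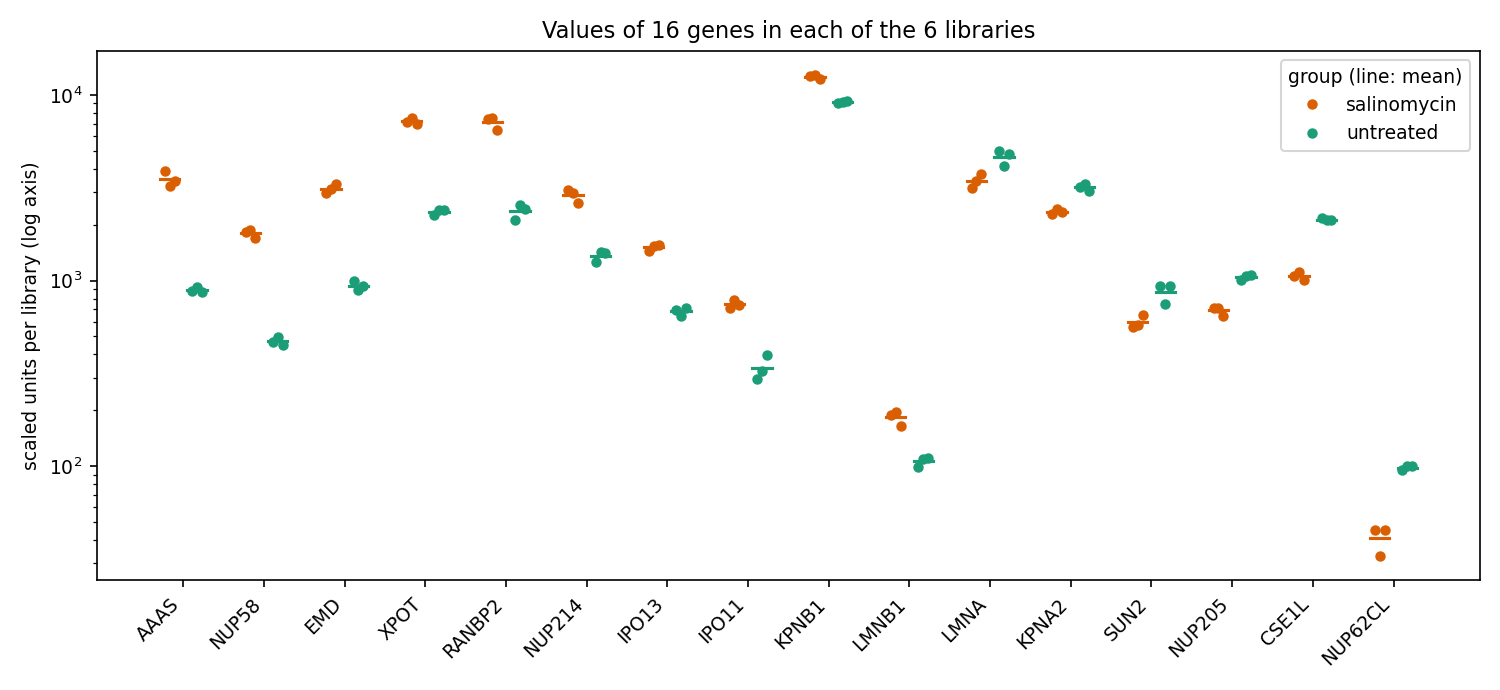
Scaled units (vertical log axis) of 16 genes in each of the 6 libraries, with salinomycin left of untreated for each gene, points for libraries and lines for group means. The genes were taken mainly from the largest rises and falls, so the lack of overlap in all 16 follows from that choice. Among all tested genes 83.1% did not overlap, and the 10 tested members that did are not drawn. The salinomycin points of AAAS lie between 3241 and 3892 units, and its untreated points between 871 and 921 units. For CSE1L the salinomycin points lie between 1007 and 1108 units, below the untreated 2114 to 2167 units.

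The central channel is filled by a trimer of NUP62, NUP58 and NUP54, and its members rose by unequal amounts. NUP58, at chr13:25301524-25349800 on the plus strand, had 1834, 1864 and 1691 units in salinomycin libraries, against 469, 497 and 452 units in untreated libraries. That is a change of 1.92 ± 0.062 (SE; limma adjusted p = 7.43e-11), 3.79-fold, with the groups far apart. NUP54 had 311, 308 and 325 units in salinomycin libraries, against 218, 233 and 217 units in untreated libraries, a rise of 0.50. NUP62 had 1210, 1284 and 1289 units in salinomycin libraries, against 1170, 1052 and 1059 units in untreated libraries, a rise of 0.21 that did not pass with upper-quartile scaling. NUP98, the channel protein with GLFG repeats that also joins the scaffold together, had 3616, 3765 and 3559 units in salinomycin libraries, against 2602, 2694 and 2644 units in untreated libraries. It rose 1.38-fold without overlap (0.46 ± 0.047, SE; limma adjusted p = 1.66e-06).

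The Y complex, which forms the outer rings, summed to 5864 ± 93.0 units in salinomycin libraries and 5233 ± 75.4 units in untreated libraries (SD, n = 3 each), a ratio of 1.12. The log2 of that ratio was 0.16, and 0.36 with library-size scaling. Of its 7 genes 4 were higher and 1 lower, but only NUP43 moved by more than 0.5, and with upper-quartile scaling the count was 1 higher and 2 lower. NUP43, one of its propeller proteins, had 1165, 1160 and 1123 units in salinomycin libraries, against 680, 698 and 664 units in untreated libraries, a rise of 0.75 ± 0.055 (SE; limma adjusted p = 7.72e-08). It shares 5.0% of its exonic bases with PCMT1 on the opposite strand, which was also higher (change 1.11). SEH1L, NUP85 and NUP133 were higher by 0.12 to 0.21, and NUP37, a second propeller protein, was lower by 0.29, while NUP160 and NUP107 did not pass at 0.09 and -0.11. Apart from NUP43, each of these outcomes changed under at least 1 other scaling.

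The inner ring, which grips the membrane and the channel, summed to 3673 ± 109 units in salinomycin libraries and 3827 ± 55.7 units in untreated libraries (SD, n = 3 each), and the libraries of the groups overlapped. A two-sided exact permutation test over the 6 libraries, which cannot give a p below 0.1, gave 0.2. NUP205, a large solenoid of the ring, was the pore protein with the clearest fall. It had 715, 716 and 642 units in salinomycin libraries, against 1006, 1055 and 1075 units in untreated libraries, and fell by 0.60 ± 0.063 on the log2 scale (SE; limma adjusted p = 2.61e-06). NUP188, its structural relative, was higher by 0.19, and NUP93, the linker that binds both, by 0.15, though neither passed with upper-quartile scaling. NUP155 had 704, 701 and 614 units in salinomycin libraries, against 642, 727 and 679 units in untreated libraries. NUP35 likewise overlapped between the groups, and neither gene passed.

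On the nuclear side, the basket proteins gave a sum of 5192 ± 280 units in salinomycin libraries and 4917 ± 266 units in untreated libraries (SD, n = 3 each). By the same two-sided exact permutation test p was 0.3. TPR, the coiled-coil strut of the basket, had 3726, 3837 and 3474 units in salinomycin libraries, against 3357, 3780 and 3644 units in untreated libraries. NUP50, which helps release importin alpha from its cargo, had 521, 475 and 459 units in salinomycin libraries, against 484, 479 and 507 units in untreated libraries. Both overlapped and did not pass, although both were called higher with library-size scaling alone. NUP153, the FG protein that anchors the basket, had 1013, 1119 and 951 units in salinomycin libraries, against 778, 871 and 850 units in untreated libraries, a rise of 0.30 ± 0.072 without overlap (SE; limma adjusted p = 0.00211), or 0.49 with library-size scaling.

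All 3 membrane ring genes were higher under each of the 4 scalings. POM121 rose by 0.64, NUP210 by 0.31 (0.50 with library-size scaling) and NDC1 by 0.26. NUP210, a glycoprotein that spans the pore membrane, had 1555, 1569 and 1586 units in salinomycin libraries, against 1186, 1265 and 1358 units in untreated libraries, with tighter values after salinomycin (limma adjusted p = 0.00038). POM121 has a near-identical copy, POM121C, which was higher by 0.42, so the division of reads between the pair is uncertain. Of the remaining NUP symbols, NUP62CL, a shorter relative of NUP62, had 45.4, 32.8 and 45.1 units in salinomycin libraries, against 95.1, 100 and 100 units in untreated libraries. Its fall of 1.26 ± 0.161 on the log2 scale (SE; limma adjusted p = 1.42e-05), to a level 2.39-fold lower, was the largest among the members, at a level near the bottom of the range. NUP210L lay at 1.85, 0 and 0 units in salinomycin libraries and 1.08, 1.06 and 1.07 units in untreated libraries and was not tested.

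Because many of these proteins work in fixed complexes, the genes were also set against their partners within each library, a ratio that no scaling between libraries can change. The pairs were picked after the values had been seen, so no test is given. NUP58 stood at 1.43 ± 0.104 times NUP62 in salinomycin libraries and 0.434 ± 0.0359 times in untreated libraries (SD, n = 3 each). AAAS stood at 7.86 ± 0.892 times NDC1, the membrane protein that recruits it, in salinomycin libraries and 2.37 ± 0.12 times in untreated libraries. The ratio of NUP214 to NUP88 was 3.02 ± 0.166 in salinomycin libraries and 1.33 ± 0.143 in untreated libraries. RANBP2 on the cytoplasmic side stood at 1.93 ± 0.0534 times TPR on the nuclear side in salinomycin libraries, and at 0.659 ± 0.0222 times in untreated libraries. Within the inner ring, NUP188 exceeded NUP205 in salinomycin libraries, 1.35 ± 0.0428, and was below it in untreated libraries, 0.780 ± 0.0206.

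**Figure D3:**
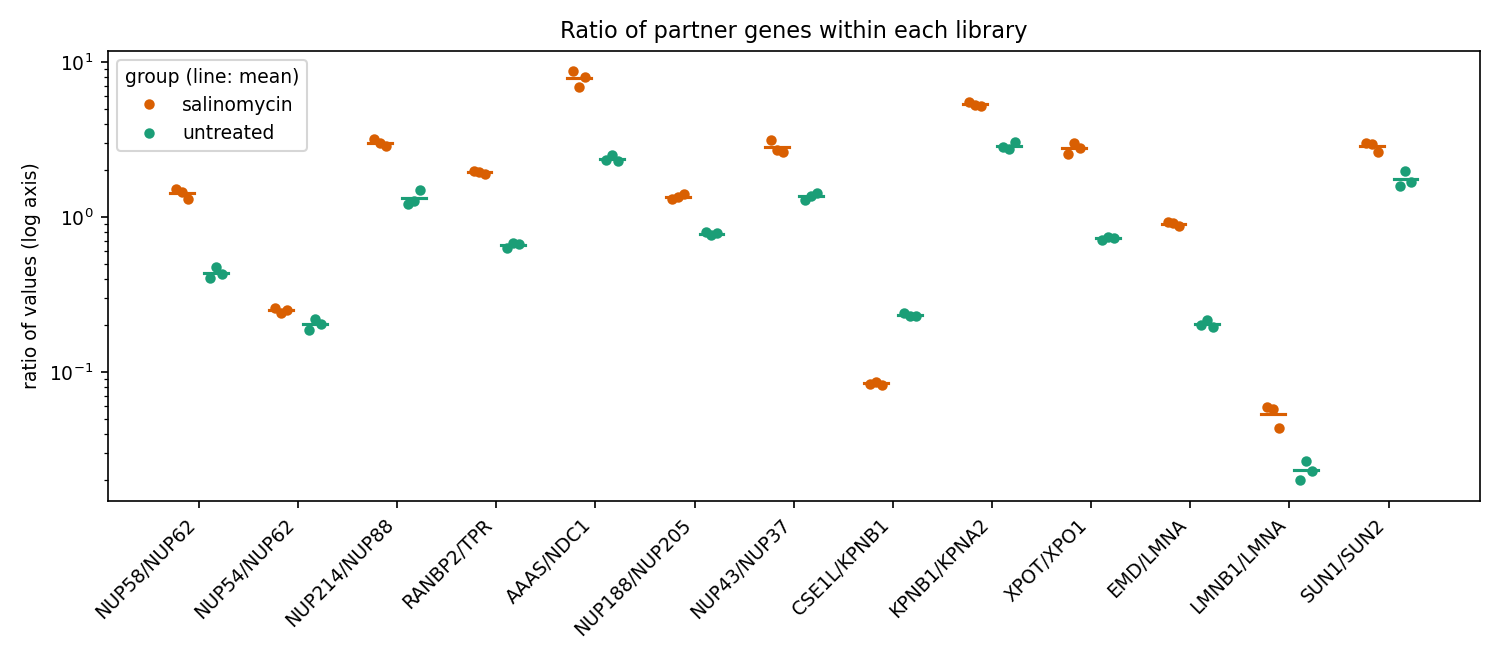
Ratio of the scaled units of 2 partner genes within each library (vertical log axis), salinomycin left of untreated for each pair, with points for libraries and lines for group means. The 13 drawn pairs were picked after the values had been seen, and not every computed pair is drawn. The groups do not overlap in any of the 13. No share for gene pairs at large was computed, so no conclusion is drawn from that. CSE1L to KPNB1 is the drawn pair that is lower in salinomycin libraries, at a mean of 0.0843 against 0.233. CSE1L to KPNA2, computed but not drawn, was also lower, at a mean of 0.45 in salinomycin and 0.671 in untreated libraries. Among the drawn pairs, the mean ratio differs most for EMD to LMNA, 0.904 in salinomycin and 0.203 in untreated libraries.

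Among the import adaptors and receptors, the classical route divided. Importin alpha proteins bind the nuclear localisation signal and KPNB1, importin beta, takes the pair through the pore. The 7 importin alpha genes summed to 9418 ± 261 units in salinomycin libraries and 10670 ± 64.7 units in untreated libraries (SD, n = 3 each), a ratio of 0.883. With library-size scaling that difference was 0.01 on the log2 scale, with the opposite sign. KPNA2, at chr17:68035519-68046842 on the plus strand, had 2298, 2425 and 2344 units in salinomycin libraries, against 3207, 3314 and 3025 units in untreated libraries, and fell by 0.43 (limma adjusted p = 7.1e-06). KPNA3 had 699, 694 and 623 units in salinomycin libraries, against 951, 950 and 938 units in untreated libraries, and fell by 0.50 (limma adjusted p = 1.24e-05). With library-size scaling the changes were smaller, -0.24 for KPNA2 and -0.30 for KPNA3, and still passed, and neither gene's groups overlapped.

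KPNA1 was lower by 0.13 and KPNA5 higher by 0.43, and each of these calls was lost under another scaling. KPNA4, KPNA6 and KPNA7 did not pass, and KPNA7, with 11.1, 14.1 and 16 units in salinomycin libraries and 14.1, 9.58 and 8.54 units in untreated libraries, was close to the filter. KPNB1, at chr17:47649476-47685505 on the plus strand, went against KPNA2 and KPNA3. It had 12640, 12844 and 12196 units in salinomycin libraries, against 9071, 9157 and 9262 units in untreated libraries, a rise of 0.45 ± 0.046 (SE; limma adjusted p = 1.75e-06), or 1.37-fold. As a ratio within a library, KPNB1 stood at 5.33 ± 0.152 times KPNA2 in salinomycin libraries and 2.88 ± 0.157 times in untreated libraries (SD, n = 3 each).

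The other import receptors of the importin beta class carry their own cargoes without an adaptor. Including KPNB1, 4 of the 10 tested were higher and 6 lower. The sum of all 11, with the untested IPO4, was 31545 ± 929 units in salinomycin libraries and 31071 ± 712 units in untreated libraries (SD, n = 3 each). By the two-sided exact permutation test p was 0.5. IPO13, a receptor that carries cargo in both directions, had 1441, 1544 and 1549 units in salinomycin libraries, against 698, 644 and 709 units in untreated libraries, a rise of 1.14 ± 0.060 (SE; limma adjusted p = 4.35e-09). IPO11, an importer of ubiquitin-conjugating enzymes, had 708, 788 and 740 units in salinomycin libraries, against 295, 324 and 399 units in untreated libraries, also a rise of 1.14 (SE 0.101; limma adjusted p = 5.07e-07). For both the lowest salinomycin library was well above the highest untreated one. IPO11 shares 17.0% of its exonic bases with LRRC70, which lay at or near 0 in all 6 libraries, and 5.7% with KIF2A on the same strand. KIF2A was higher by 0.22, at 1421 ± 66.7 units in salinomycin libraries and 1224 ± 95 units in untreated libraries (SD, n = 3 each), and its part in the IPO11 value was not tested.

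The falls were smaller, and with library-size scaling the changes of TNPO1 and IPO9 were -0.27 and -0.24. TNPO1, which imports RNA-binding proteins of the hnRNP family, had 4887, 4405 and 4317 units in salinomycin libraries, against 5843, 6348 and 6502 units in untreated libraries, and fell by 0.46 (limma adjusted p = 1.93e-05). IPO9, which imports histones and actin, had 1990, 1971 and 1807 units in salinomycin libraries, against 2447, 2598 and 2707 units in untreated libraries, and fell by 0.43 (limma adjusted p = 2.27e-05). IPO7 and IPO5, which import ribosomal proteins, fell by 0.37 and 0.35, TNPO2, the close relative of TNPO1, by 0.34, and IPO8 by 0.30, the last lost with library-size scaling. TNPO3, which imports splicing factors of the SR family, was higher by 0.25. IPO4 was below the filter, with 11.1, 7.50 and 7.51 units in salinomycin libraries and 2.16, 2.13 and 0 units in untreated libraries. A read-through gene shares 69.3% of the exonic bases of IPO4, and its part in these values was not tested.

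The exportins showed the widest spread of the karyopherins, with 4 higher and 3 lower. XPOT, at chr12:64404350-64451127 on the plus strand, carries transfer RNAs out of the nucleus. It had 7194, 7472 and 6987 units in salinomycin libraries, against 2257, 2404 and 2391 units in untreated libraries. The groups were far apart, and the change of 1.62 ± 0.049 (SE; limma adjusted p = 4.41e-11) was a 3.07-fold rise and had the smallest adjusted p among the members. XPO6, the exporter of actin, and XPO7 rose by 0.75 and 0.63, and XPO4 by 0.36.

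CSE1L, at chr20:49046246-49096960 on the plus strand, returns importin alpha to the cytoplasm after each round of import. It had 1064, 1108 and 1007 units in salinomycin libraries, against 2167, 2114 and 2119 units in untreated libraries. The fall of 1.01 ± 0.053 on the log2 scale (SE; limma adjusted p = 4.3e-09) left it 2.01-fold lower, with no overlap. Set against KPNB1 within a library, CSE1L stood at 0.0843 ± 0.00185 in salinomycin libraries and 0.233 ± 0.00536 in untreated libraries (SD, n = 3 each). XPO1, the main exporter of proteins with a leucine-rich export signal, had 2841, 2492 and 2519 units in salinomycin libraries, against 3203, 3238 and 3248 units in untreated libraries. Its fall of 0.31 on the log2 scale (limma adjusted p = 0.000323) did not pass with library-size scaling, where the change was -0.11. XPO5, the exporter of microRNA precursors, fell by 0.35. The ratio of XPOT to XPO1 was 2.77 ± 0.233 in salinomycin libraries and 0.728 ± 0.0203 in untreated libraries.

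In the lamina, LMNB1 rose against the direction of the other lamins. It had 189, 197 and 164 units in salinomycin libraries, against 99.5, 110 and 111 units in untreated libraries, a rise of 0.77 ± 0.112 (SE; limma adjusted p = 4.21e-05), 1.71-fold and without overlap. LMNA, which encodes lamins A and C, had 3166, 3431 and 3775 units in salinomycin libraries, against 4968, 4121 and 4803 units in untreated libraries, and fell by 0.42 (limma adjusted p = 0.000341), with a change of -0.23 under library-size scaling. LMNB2 had 571, 597 and 577 units in salinomycin libraries, against 689, 608 and 721 units in untreated libraries. Its fall of 0.20 (limma adjusted p = 0.0213) did not pass with library-size scaling, where the change was -0.01. It also did not pass without salinomycin replicate 1, untreated replicate 1 or untreated replicate 3, where the change was -0.19, -0.19 and -0.15. The ratio of LMNB1 to LMNA within a library was 0.0535 ± 0.00873 in salinomycin libraries and 0.0232 ± 0.00329 in untreated libraries (SD, n = 3 each).

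Of the inner membrane proteins, EMD moved most. EMD, at chrX:154379197-154381523 on the plus strand, encodes emerin, which binds lamins and is lost in a form of muscular dystrophy. It had 2950, 3115 and 3299 units in salinomycin libraries, against 993, 892 and 932 units in untreated libraries, a rise of 1.73 ± 0.060 (SE; limma adjusted p = 1.26e-10), or 3.32-fold. With EMD up and LMNA down, the ratio of EMD to LMNA was 0.904 ± 0.0290 in salinomycin libraries and 0.203 ± 0.0116 in untreated libraries (SD, n = 3 each), the widest difference of the 21 pairs computed.

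SUN1 and SUN2, which link the lamina to the cytoskeleton through nesprins, went opposite ways. SUN2 had 560, 578 and 655 units in salinomycin libraries, against 930, 746 and 938 units in untreated libraries, and fell by 0.54 (limma adjusted p = 0.0002), with a change of -0.35 under library-size scaling. SUN1 had 1678, 1700 and 1711 units in salinomycin libraries, against 1482, 1486 and 1563 units in untreated libraries, a rise of 0.17 (limma adjusted p = 0.00752) that did not pass with upper-quartile scaling. GET4 shares 15.6% of the exonic bases of SUN1 on the same strand and was itself higher by 2.44, and its part in the SUN1 value was not tested. LBR, the lamin B receptor, had 323, 329 and 283 units in salinomycin libraries, against 361, 377 and 348 units in untreated libraries. Its fall of 0.22 (limma adjusted p = 0.0301) did not pass with library-size scaling, where the change was -0.03. It also did not pass without salinomycin replicate 3, untreated replicate 1 or untreated replicate 2, where the change was -0.16, -0.22 and -0.19.

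Compared per kilobase of transcript, the order of the 61 genes was reshaped at its top. KPNB1 was the highest in untreated cells at 1493 ± 15.6 units per kb, ahead of KPNA2 at 1459 ± 67.0 and LMNA at 1452 ± 141 units per kb, a trio that did not differ beyond the spread of LMNA (SD, n = 3). In salinomycin cells EMD led at 2263 ± 127 units per kb, followed by KPNB1 at 2046 ± 53.9 and AAAS at 1918 ± 181 units per kb, and the ranges of mean ± SD overlapped for KPNB1 and AAAS but not for EMD and KPNB1. XPOT ranked 4th in salinomycin cells at 1125 ± 38.0 units per kb, and in untreated cells it ranked 21st at 367 ± 12.7 units per kb. NUP58 ranked 17th at 415 ± 21.4 units per kb in salinomycin cells and 49th at 109 ± 5.18 units per kb in untreated cells. CSE1L ranked 28th at 298 ± 14.2 units per kb in salinomycin cells and 8th at 600 ± 8.30 units per kb in untreated cells. LMNB1 stayed low in both, at 63.7 ± 5.90 units per kb in salinomycin cells and 37.1 ± 2.18 units per kb in untreated cells.

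**Figure D4:**
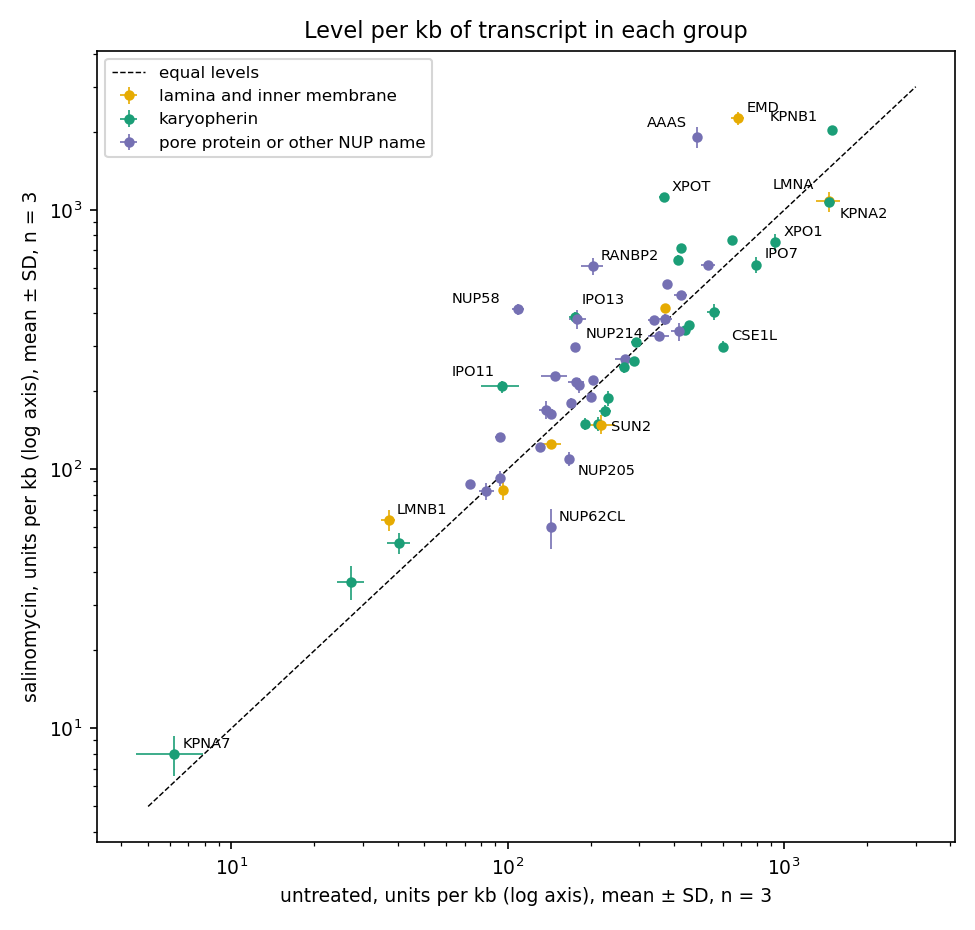
Mean level per kb of transcript in untreated cells (horizontal log axis) and in salinomycin cells (vertical log axis) for the 59 tested genes, with SD over 3 libraries as bars and equal levels as a dashed line. EMD, AAAS, XPOT, RANBP2 and NUP58 stand well above the line, at 2263, 1918, 1125, 608 and 415 units per kb in salinomycin cells, and CSE1L and NUP62CL stand below it, at 298 and 59.7 units per kb.

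The promoters were read for short motifs, a feature the gene rule did not use. For 54 of the 61 genes RefSeq (GRCh38.p14) gave the 250 bases before the start site, and for 15 with more than 1 start the first listed was taken. CCAAT, the box to which the factor NF-Y binds, was found on either strand in 25 of the 54 (46.3%), and in 33.0% of the 27305 promoters in the table. Among the genes that fell, 12 of 19 held CCAAT (63.2%), against 33.3% of all tested genes that fell. Among the genes that rose, 6 of 24 held it (25%), against 36.2% of all tested genes that rose. Among those not past the threshold, 6 of 9 held it (66.7%), against 34.3%. These shares are a description, with no test, and a match is not a bound site.

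The 120 bases before the start are shown, 5′ to 3′ on the gene's strand, for 4 genes that fell and hold the box and for the 4 largest rises. The first 4 were picked because they hold it, so only its place, and not its presence, can be read from them. KPNA3 fell without the box, and NUP98 and NUP214 rose with it, and they are not shown. Capitals mark CCAAT or its reverse complement. They are KPNA2 (chr17:68035615-68035734, plus strand), XPO1 (chr2:61538357-61538476, minus), CSE1L (chr20:49046192-49046311, plus), TNPO1 (chr5:72816541-72816660, plus), EMD (chrX:154379175-154379294, plus), XPOT (chr12:64404272-64404391, plus), NUP58 (chr13:25301505-25301624, plus) and AAAS (chr12:53321611-53321730, minus).
KPNA2: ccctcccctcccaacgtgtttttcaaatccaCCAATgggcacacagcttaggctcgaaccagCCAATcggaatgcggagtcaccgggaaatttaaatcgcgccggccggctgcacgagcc
XPO1: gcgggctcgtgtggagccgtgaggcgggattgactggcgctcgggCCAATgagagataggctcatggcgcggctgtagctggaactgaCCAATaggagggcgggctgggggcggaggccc
CSE1L: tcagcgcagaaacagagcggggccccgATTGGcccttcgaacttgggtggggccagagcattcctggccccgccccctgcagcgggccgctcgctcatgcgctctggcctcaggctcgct
TNPO1: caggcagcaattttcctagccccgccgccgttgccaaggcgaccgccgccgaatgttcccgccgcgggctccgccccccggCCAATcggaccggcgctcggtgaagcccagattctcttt
EMD: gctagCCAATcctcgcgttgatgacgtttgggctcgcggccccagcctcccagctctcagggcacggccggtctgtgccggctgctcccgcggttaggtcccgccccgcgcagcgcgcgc
XPOT: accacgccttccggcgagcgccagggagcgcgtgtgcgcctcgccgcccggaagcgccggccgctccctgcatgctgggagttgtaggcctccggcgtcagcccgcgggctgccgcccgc
NUP58: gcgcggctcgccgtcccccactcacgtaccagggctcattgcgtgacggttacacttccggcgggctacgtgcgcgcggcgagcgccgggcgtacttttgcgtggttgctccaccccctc
AAAS: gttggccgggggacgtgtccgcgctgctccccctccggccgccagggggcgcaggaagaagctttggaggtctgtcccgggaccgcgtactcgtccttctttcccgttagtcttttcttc

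KPNA2 and XPO1 each hold the box in a pair, CSE1L and TNPO1 once, and in EMD it lies at the far end of the stretch with another copy further upstream. XPOT, NUP58 and AAAS hold none in the 250 bases. The other fixed motifs were scarcer: CACGTG was in 6 of the 54 (11.1%), against 6.49% of all promoters, and 4 E2F-like forms (TTTCGCGC, TTTGGCGC, TTTCCCGC and TTTGGGCGC, either strand, each gene counted once) were in 2 of the 54 (3.70%), against 2.52%. Of 4 motifs added after the values had been seen, the cyclic AMP element TGACGTCA was in NUP133, NUP214 and NUP42 (5.56% of 54, against 1.77%), and TGATGNAA, the form read by the stress factor ATF4 with a C/EBP partner, was in NUP153 alone (1.85%, against 3.19%). The NRF1 core was in 7 (13.0%, against 5.53%), and the endoplasmic reticulum stress element, in the form that begins with CCAAT, was in none (against 0.0806%).

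Besides the members, 43 further genes of nuclear transport and the envelope were read, all of them tested. Of these, 21 were higher (48.8%), 10 lower (23.3%) and 12 not past the threshold, with a median of 0.27. Among all tested genes 41.6% were higher and 40.4% lower, with a median of 0.02. With TMM scaling, the counts for smaller lists that follow stand beside those same shares. Of all 13049 genes tested with library-size scaling, 6439 were higher and 4353 lower. Of the 13051 tested with upper-quartile scaling, 4995 were higher and 5725 lower. Of 7 genes of the Ran cycle, 2 were higher and 4 lower, or 2 and 2 with library-size scaling, under which RAN and RANBP3 did not pass. RCC1, which charges Ran with GTP on chromatin, had 467, 514 and 557 units in salinomycin libraries, against 1035, 923 and 1046 units in untreated libraries, and fell by 0.97 (limma adjusted p = 2.15e-07). RAN itself changed by -0.29 (-0.10 with library-size scaling) and its importer NUTF2 by -0.67, whereas RANGAP1, the GTPase activator held by RANBP2, rose by 0.80 and RANBP1 by 0.97. RANBP3 changed by -0.19 and lost its call under 7 of the 15 other settings. Of 13 genes of messenger RNA export, 6 were higher and 2 lower, with 10 higher under library-size scaling and 5 under upper-quartile scaling. NXT1, the small partner of the export receptor NXF1, had 1831, 2096 and 1937 units in salinomycin libraries, against 403, 367 and 346 units in untreated libraries, a rise of 2.39 (limma adjusted p = 4.71e-11). NXF1 fell by 0.45. ALYREF, the adaptor that loads NXF1 onto RNA, had 1607, 1713 and 1824 units in salinomycin libraries, against 439, 394 and 418 units in untreated libraries, a rise of 2.04 (limma adjusted p = 8.29e-11).

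All 5 genes listed as further pore and transport proteins were higher. SEC13, shared between the Y complex and the coat of vesicles leaving the endoplasmic reticulum, had 6902, 7251 and 7758 units in salinomycin libraries, against 2369, 2248 and 2170 units in untreated libraries, a rise of 1.69 (limma adjusted p = 8.91e-11), the other 4 rising by 0.40 to 0.58. Of 13 partners at the inner membrane, 5 were higher and 2 lower, with 9 higher under library-size scaling. SYNE2, a giant nesprin that SUN proteins hold, had 269, 262 and 176 units in salinomycin libraries, against 1065, 1804 and 1757 units in untreated libraries, and fell by 2.69 (limma adjusted p = 8.36e-08). SYNE1, at a change of 0.27, overlapped between the groups and did not pass, though it was called higher with library-size scaling and with voom weights. Of 5 genes that process prelamin A, the farnesyltransferase subunit FNTB, with 130, 102 and 149 units in salinomycin libraries and 256, 236 and 244 units in untreated libraries, fell by 0.96 (limma adjusted p = 2.50e-05) and the methyltransferase ICMT by 0.59. The protease ZMPSTE24 rose by 0.65, FNTA by 0.36 and RCE1 by 0.34.

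Epithelial markers moved with the groups as well: 5 of 6 were lower and KRT19 higher, where 40.4% of all tested genes were lower and 41.6% higher. The sum of the 6 ranged from 61088 to 70542 units in salinomycin libraries, against 210313 to 238053 units in untreated libraries. The alveolar type 2 list, mostly ABCA3, summed to 3209 to 3466 units in salinomycin libraries, against 1645 to 2133 units in untreated libraries. The fibroblast list, mostly COL1A1, summed to 404 to 439 units in salinomycin libraries, against 575 to 806 units in untreated libraries. Endothelial genes summed to at most 10.2 units in salinomycin and 15.1 units in untreated libraries, and CD68, the only leukocyte marker in the table, reached at most 14.1 units in salinomycin and 3.24 units in untreated libraries. The part of these shifts in the results above was not tested.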

How the data were processed

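Gene-level values of 6 A549 RNA-seq libraries were used, 3 salinomycin and 3 untreated. The deposited signal was a whole number for each gene and library, rescaled between libraries by the authors, with 1 as the lowest. Per the file headers the table also held the authors' mean as log10, their log2 fold change, a linear fold ratio, a test score and p-values. A second deposited table gave enrichment scores and p-values per gene set. The submitters' processing notes name GRCh38 as the build. Aligner, counter and use of strand: not given in the sources used here.

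After subtracting 1, values were scaled by TMM (30% of ratios and 5% of levels trimmed; factors 1.065 to 1.08 for salinomycin and 0.925 to 0.9399 for untreated libraries) and fitted as log2(value + 1) with limma 3.58.1 (mean-variance trend) in R 4.3.3. Genes with 10 or more units in at least 3 libraries were tested, 13049 genes, and 3621 were set aside. Sums over roles were compared by a two-sided exact permutation test, with 0.1 as the smallest p. Positions, lengths (transcript with the longest coding sequence) and overlaps came from GENCODE 29, and promoters from RefSeq.

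Named in full were the 8 members with the largest rises, the 8 with the largest falls, the 4 with the smallest changes, a fixed list of 15 and, of the further genes, 3 rises and 3 falls. Others named with values were chosen after these were seen. Members, lists and tests were chosen with earlier results of these data known. No 2 libraries held identical values, and each was counted as 1 replicate. Chi-squares between same-group libraries were 2.81 to 6.32 for each gene, but they assume unscaled counts and do not settle whether a pair differed beyond sampling noise. Alternatives were 3 other scalings, no filter or one of 50, pseudocounts of 0.5 and 8, voom weights, a replicate block and leaving out each library.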

Additional observations from a re-analysis of the deposited data

How the results depend on the processing

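Counts of members called higher and lower (29 and 19) stayed within 1.5 times under every alternative, at 24 to 28 and 17 to 19 with a library left out, and those of the 43 further genes (21 and 10) at 20 to 23 and 9 to 10. With library-size scaling the further genes gave 29 higher and 8 lower, where 6439 of all 13049 tested genes were higher and 4353 lower. Of 59 members, 22 changed call under at least 1 alternative: IPO8, KPNA1, KPNA4, KPNA5, KPNA6, LBR, LMNB2, NUP107, NUP133, NUP160, NUP188, NUP37, NUP42, NUP50, NUP62, NUP85, NUP88, NUP93, SEH1L, SUN1, TPR and XPO1. None was called in the opposite direction. Besides those of LBR and LMNB2, calls were lost without salinomycin replicate 1 for KPNA5 (0.31), NUP133 (0.13), NUP85 (0.15) and SEH1L (0.17), and without salinomycin replicate 2 for NUP133 (0.10), NUP188 (0.16), NUP85 (0.17), NUP93 (0.13) and SEH1L (0.18). Without salinomycin replicate 3 they were lost for KPNA1 (-0.11), NUP133 (0.12), NUP85 (0.14) and NUP93 (0.13), and without untreated replicate 1 for NUP133 (0.10). Without untreated replicate 2 they were lost for KPNA1 (-0.13), KPNA5 (0.36), NUP93 (0.12) and SEH1L (0.20), and without untreated replicate 3 for KPNA1 (-0.12), NUP133 (0.13), NUP85 (0.11) and NUP93 (0.15), while NUP88 (-0.17) was then called lower. The sign changed under at least 1 setting for 9 members, of which KPNA1 had been called. With library-size scaling the change was 0.06 for KPNA1, 0.10 for KPNA4, 0.08 for NUP107, 0.12 for NUP35 and 0.08 for NUP88. NUP42 was -0.08 with upper-quartile scaling and between -0.04 and 0.07 with a library left out, and TPR was -0.05 and between -0.01 and 0.07. NUP50 was 0.18 with library-size scaling and between -0.07 and 0.01 with a library left out, and NUP155 was 0.17 and between -0.06 and 0.03. With library-size scaling the log2 ratio of summed levels was 0.13 for the inner ring and 0.01 for importin alpha, and it was 0.36 for the Y complex, 0.27 for the basket, 0.21 for the import receptors, -0.17 for the lamins and 0.58 for the membrane ring, against 0.16, 0.08, 0.02, -0.36 and 0.39 with TMM. The cause was not tested beyond the shift of the median of all genes. Same-numbered libraries of the groups shared only a number (their deviations correlated at -0.178, -0.016 and -0.034), and with a replicate block 26 members were higher and 18 lower, 20 and 9 of the further genes, with KPNA1, NUP133, NUP85 and NUP93 losing their call. Of all 13049 genes tested with that block, 5305 were higher and 5129 lower. Leaving out libraries leaves 2 against 3, and 4905 to 5369 of all tested genes were then higher and 4787 to 5143 lower. In the authors' deposited table, 33 members were higher and 11 lower at an adjusted p under 0.05. Over all 16670 genes there, 6337 were higher and 4249 lower at that threshold. Of the members, 48 had the same call as in the fit used here. Fold changes of low genes such as NUP62CL are damped by the pseudocount, and 3 libraries a group limit sums to a smallest exact permutation p of 0.1.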

Other observations

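The authors' deposited table of gene sets held 26 sets whose names refer to the pore, the envelope or nuclear transport, of which 24 had a positive score. Per the table's name its direction is salinomycin against untreated. In the authors' deposited table the nuclear pore set had a normalised enrichment score of 1.544 with an adjusted p of 0.0412, the only one of the 26 under 0.05. Export of messenger RNA stood at 1.5 with an adjusted p of 0.0893, and the nuclear envelope at 1.237 with an adjusted p of 0.140, in the authors' deposited table. Import into the nucleus had a score of 0.780 with an adjusted p of 0.963 there. These sets share genes and libraries with the members, so they are not separate evidence. The shares of all the authors' sets with a positive score, or with an adjusted p under 0.05, were not computed. The counts of 24 and of 1 among the 26 are therefore not read as particular to these sets.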
